A study of Mus musculus with 6 samples.

Results

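The 56 genes described here carry the names of tubulins and kinesin motors, the subunits of microtubules and the motors that move along them, in megakaryocyte progenitors (MkP). They were chosen by name from the array annotation: every gene with a probe set of its own whose symbol begins with Tuba, Tubb or Tubg and a digit, or with Kif and a digit, or with Kif, a letter and a digit. This gave 15 tubulin genes and 41 kinesin genes, with 133 probe sets, out of 18193 genes with a probe set of their own. The tubulin genes include Tubb2a-ps2, whose symbol is that of a pseudogene. A probe set is a group of short probes on the array that reads 1 transcript or a few. Each gene is represented by its brightest probe set over the 6 arrays, and Tubb1 had a single probe set.

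MkP are blood precursors that mature into megakaryocytes, the cells that release platelets. Cells from fetal liver at E13.5 of gestation (3 arrays) were set against cells from the bone marrow of adult mice aged 12 to 18 weeks (3 arrays). All were wild type and of strain C57BL/6, and all were flow sorted as cells without lineage markers and Sca-1 positive for CD41, CD150 and c-kit. The samples are given as biological replicates, with no word on how many mice or embryos each held, so the p-values measure the spread between these samples. Tissue and developmental age change together here and cannot be told apart.

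Microtubules are hollow polymers of alpha and beta tubulin that grow from templates of gamma tubulin. Vertebrates carry several alpha and beta tubulin genes, the isotypes, which differ mainly in their tails and in the tissues that use them. Kinesins convert ATP into movement along microtubules; some build the mitotic spindle and part the daughter cells, others carry vesicles, organelles and mRNA. In megakaryocytes microtubules form the large spindles of cells that copy their DNA without dividing, push out the proplatelet extensions, and coil into the marginal band that gives the platelet its disc shape.

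Values are probe set signals on a linear scale, and the mean of each array after trimming 2% of the signals at each end was 500. A signal above the brightest of 27 bacterial control probe sets of the same array, which lay between 22.2 and 35.1, is called above background. All changes are log2 fold changes, fetal liver minus bone marrow, of log2(signal + 2.87), each given with its standard error (SE) from the fit; on this scale the change of a dim gene is understated. Arrays of the same tissue correlated across genes at 0.939 to 0.963 in fetal liver and 0.901 to 0.921 in bone marrow, against 0.849 to 0.878 between tissues. The 5′ to 3′ signal ratio of the control probe sets, a sign of RNA quality, was 0.109 to 0.449 in fetal liver and 0.0990 to 0.303 in bone marrow for Gapdh. For Actb it was 0.892 to 1.02 in fetal liver and 1.06 to 1.13 in bone marrow, so that the tissues did not overlap. Tubb1, Kif26a and Tubb4b were also called with the Gapdh ratio as a covariate, and the part of the Actb ratio was not tested. Bone marrow replicate 2 stood apart from the other marrow arrays on the second principal component. The sort markers Kit, Slamf1 and Itga2b were above background on all 6 arrays, and 0 of the 3 were past the threshold (limma, Benjamini-Hochberg adjusted p under 0.05). Their summed signal was 4521 to 5248 in fetal liver and 6609 to 7357 in bone marrow.

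Markers of most other cell types differed between the tissues, while the summed signals of the hepatocyte and lymphoid lists overlapped. The summed signal of 14 granulocyte and monocyte genes was 4832 to 6934 in fetal liver and 44787 to 71010 in bone marrow. All 11 tested members were lower in fetal liver, where 4 of the 14, Ltf among them, were above background on no array. Some, Ltf and Camp among them, passed the filter on dim signals only through their marrow arrays, so a difference was built into their being tested. Over all genes tested, 3.01% were called higher and 4.76% lower. Macrophage genes summed to 342 to 470 in fetal liver and 1981 to 3842 in bone marrow (3 of 6 tested lower), and mast cell and basophil genes to 2355 to 6258 and 8531 to 12416 (3 of 7 tested lower). Erythroid genes summed to 10753 to 23817 in fetal liver and 5260.3 to 6900 in bone marrow (5 of 10 tested higher), hepatocyte genes to 652 to 3714 and 275 to 694 (1 of 5 tested higher), and lymphoid genes to 349.8 to 451 and 354 to 643 (0 of 2 tested called). In bulk RNA fewer cells of a type and less RNA per cell cannot be told apart, and the part of these cells in the values below was not tested.

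Tubb1, Tubb4b and Kif26a were higher in fetal liver MkP, and no tubulin or kinesin was lower past the threshold. Of the 56 genes, 40 passed the filter on dim signals and were tested, and 3 of them were called higher, a count to be read against 3.01% of all 11625 genes tested. The count called lower was 0 (limma), against 4.76% of all genes. Kif26a, 1 of the 3, entered the test only through its fetal liver signals. At an unadjusted p under 0.05, 5 members had higher and 3 had lower signals, against 10.7% and 12.1% of all genes. Kif17, 1 of the 3 with lower signals, entered the test only through its marrow signals. The signals of the tissues did not overlap for 8 of the 40 members, against 28.0% of all genes tested. The median change of the tested members was 0.04, against 0.01 for all genes, and its sign was not stable: it was -0.05 without fetal liver replicate 3 and 0.16 without fetal liver replicate 1.

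Tubb1 encodes the beta tubulin of megakaryocytes and platelets, the main beta subunit of the marginal band. Its signal was 2941, 2344 and 3029 on the fetal liver arrays, against 245, 19.0 and 91.5 on the bone marrow arrays. The fetal liver values lay close together and far above all marrow values, while the marrow values spread widely and replicate 2 was not above background. Means were 2772 ± 373 in fetal liver and 118 ± 115 in bone marrow (SD, n = 3 each). The change was 5.11 ± 0.70 (SE, limma adjusted p = 0.00196), the change ranked 11 from the top among the genes tested. With any of the 6 arrays left out it lay between 4.17 and 5.92 and stayed past the threshold, the lowest value being that without bone marrow replicate 2. Of the 13 tested megakaryocyte and platelet genes, 4 were higher and 1 was lower, against 3.01% and 4.76% of all genes. Thbs1, which encodes the granule protein thrombospondin, rose by 4.74 ± 0.29 (adjusted p = 2.56e-05), and the receptor gene Clec1b by 1.32 ± 0.28 (adjusted p = 0.0177). Selp, which encodes P-selectin, fell by 3.66 ± 0.53 (adjusted p = 0.00273).

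Kif26a encodes an unusual kinesin that binds microtubules without the motor's ATPase activity and, in mice, restrains growth factor signalling in enteric neurons. Its signal was 189.6, 294 and 323 on the fetal liver arrays, against 1.33, 5.34 and 4.55 on the bone marrow arrays. It was above background on every fetal liver array and on no marrow array, so the marrow values have no order. Taking the background as the marrow level, it was at least 8.81-fold higher in fetal liver, with measured means of 269 ± 70.3 in fetal liver and 3.74 ± 2.12 in bone marrow (SD, n = 3 each). The limma adjusted p was 5.11e-04 on the signals as measured and 0.00137 with every array's signals floored at its highest bacterial control. It passed the filter on dim signals through its fetal liver arrays alone, so a difference was built into its being tested. A single probe set reads this gene.

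Tubb1 and Kif26a had the largest changes among the members, so the 250 bases before their starts are shown, with CG dinucleotides in capitals. They are from RefSeq on build GRCm38.p6, both on the plus strand, 5′ to 3′. The Tubb1 window is chr2:174450345-174450594, and the Kif26a window, chr12:112145958-112146207, precedes a start that lies inside the annotated span of the gene.
Tubb1: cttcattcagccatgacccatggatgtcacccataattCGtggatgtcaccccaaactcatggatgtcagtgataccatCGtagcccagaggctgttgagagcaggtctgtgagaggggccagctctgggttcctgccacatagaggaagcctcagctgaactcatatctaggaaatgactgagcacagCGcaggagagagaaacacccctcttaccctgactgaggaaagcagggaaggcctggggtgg
Kif26a: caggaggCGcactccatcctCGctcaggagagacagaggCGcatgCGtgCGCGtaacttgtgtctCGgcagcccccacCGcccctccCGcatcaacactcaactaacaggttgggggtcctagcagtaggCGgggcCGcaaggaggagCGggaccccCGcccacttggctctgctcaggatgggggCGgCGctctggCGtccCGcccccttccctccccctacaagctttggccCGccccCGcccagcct

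The windows differ in composition. The Tubb1 window held 3 CG dinucleotides and 54.0% G and C, and the Kif26a window held 19 and 69.2%, against medians of 6 and 52.4% over all 32851 windows of this length. Neither window held GATAA, a form of the site bound by GATA factors, or TGANTCA, the core bound by NF-E2 and AP-1, on either strand. These letters stood in 22.6% and 6.75% of all windows. The shorter GATA, which was not counted, stands in the Tubb1 window above. In the 48 windows of the 44 members found in the table, GATAA stood in 3 and TGANTCA in 0. CCAAT stood in 22 of the 48 windows (45.8%) and in 9 of the 13 windows of mitotic kinesins, against 33.8% of all windows. TTTGAA, the core of an element common before cell cycle genes, stood in 10 of the 48 (20.8%) and in 5 of the 13, against 5252 of all 32851 windows. Both strands were searched, and none of these motifs contains another. A match describes letters only.

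**Figure D1:**
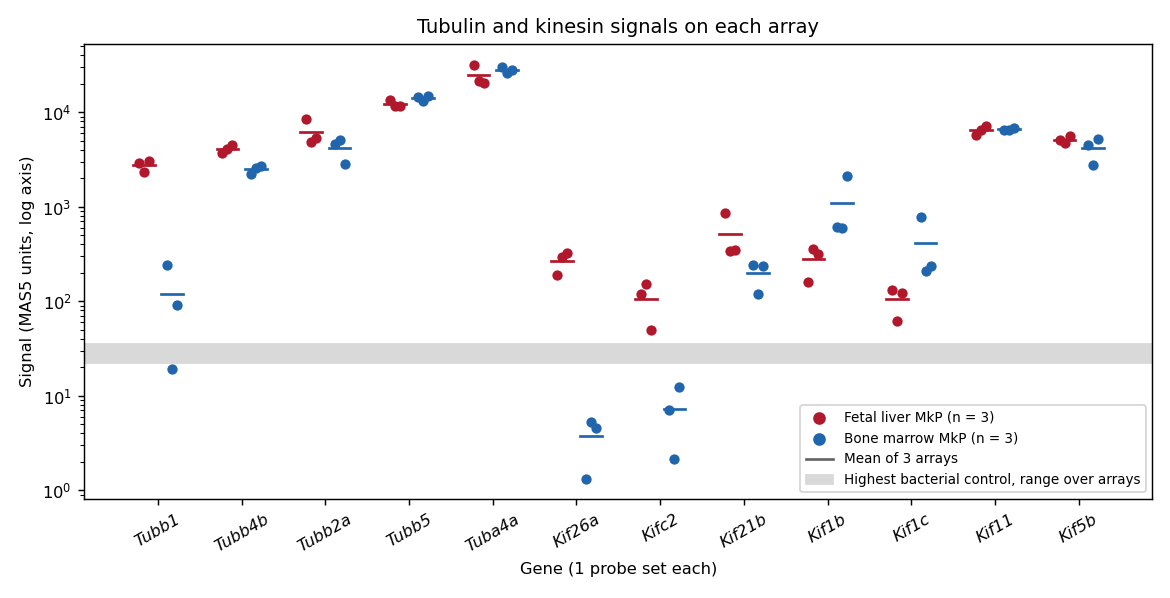
Signal of 12 tubulin and kinesin genes on each array, on a log axis, with fetal liver MkP left of bone marrow MkP; points are arrays, short lines are means of 3 arrays, and the grey band is the range of the highest bacterial control signal. Tubb1 and Kif26a stand far higher on all fetal liver arrays, the Kif26a and Kifc2 points of bone marrow lie below the band, and the points of Tubb5, Tuba4a and Kif11 overlap between tissues.

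Among the other beta tubulins Tubb4b was the only gene past the threshold. Tubb4b, an isotype used by most tissues, had signals of 3685, 4128 and 4539.9 in fetal liver, against 2225, 2564 and 2677 in bone marrow. All fetal liver values lay above all marrow values, with means of 4118 ± 427 and 2488 ± 235 (SD, n = 3 each). The change was 0.73 ± 0.19 (SE, adjusted p = 0.0406), and this call is close to the threshold: it held in 7 of 17 alternatives and in 0 of the 6 fits without an array, where the adjusted p reached 0.196. With a row for each probe set its adjusted p was 0.0548.

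The 5 other tested beta tubulins did not pass. Tubb5, the common isotype of dividing cells, had signals of 13511, 11551 and 11729 in fetal liver, against 14588, 13262 and 14873 in bone marrow. The change was -0.22 ± 0.14 (adjusted p = 0.417; 95% interval -0.53 to 0.10), and the groups overlapped slightly. Tubb2a had signals of 8482, 4829.9 and 5395 in fetal liver, against 4634, 5048 and 2856 in bone marrow, a change of 0.57 ± 0.27 (adjusted p = 0.241). Fetal liver replicate 1 was the high array and bone marrow replicate 3 the low array for this gene. Its probe set carries a suffix for probes that match related transcripts, and beta tubulin sequences are alike, so neighbouring isotypes may share its signal.

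Tubb2b, Tubb3 and Tubb6 varied too much between arrays to be told from no change. Tubb2b, an isotype of developing neurons, had signals of 441, 422 and 282 in fetal liver, against 81.9, 222 and 395 in bone marrow (0.94 ± 0.55, adjusted p = 0.352). Tubb3, the neuronal isotype, had signals of 208, 14.5 and 70.4 in fetal liver, against 6.97, 37.4 and 19.7 in bone marrow (1.64 ± 0.92, adjusted p = 0.331). It was above background on 2 fetal liver arrays and 1 marrow array. Tubb6 had signals of 359, 453 and 563 in fetal liver, against 699.5, 91.4 and 256 in bone marrow (0.82 ± 0.62, adjusted p = 0.492). For Tubb2b and Tubb6 the marrow arrays differed several-fold among themselves, while most marrow signals of Tubb3 were below background. Of the 7 tested beta tubulins 6 had a positive change, against 5876 of all 11625 genes tested. Their median was 0.82, against 0.01 for all genes. Tubb3, 1 of the 6, passed the filter on dim signals only through its fetal liver arrays, so a difference was built into its being tested. Tubb4a, a brain isotype, was below the filter: its signals were 43.7, 129 and 48.0 in fetal liver, above background on all 3 arrays, against 31.6, 3.01 and 14.9 in bone marrow, above it on none. Taking background as the marrow level it was at least 2.25-fold higher, and with no filter its adjusted p was 0.187.

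The tested alpha tubulins did not separate the tissues. Tuba4a, an isotype of platelets and of other tissues, had signals of 31910.3, 21182 and 20621 in fetal liver, against 30025, 26336 and 28047 in bone marrow, and the change was -0.22 ± 0.18 (adjusted p = 0.509). Fetal liver replicate 1 alone lay above the marrow arrays, and without it the change was -0.43 (adjusted p = 0.0483). Tuba8 had signals of 1808, 2266 and 2164 in fetal liver, against 1813, 1851 and 2483 in bone marrow, a change of 0.03 ± 0.22 (adjusted p = 0.961). Tuba1a, a main isotype of developing tissue, had signals of 13649, 5914 and 6583 in fetal liver, against 14799, 9446 and 7576 in bone marrow (-0.33 ± 0.33, adjusted p = 0.609). For Tuba1a each tissue had 1 array well above its other arrays. The Tuba1a probe set carries a suffix for probes that can match other transcripts, so other alpha tubulins may share its signal. The 95% intervals of Tuba4a and Tuba8 lay within 1 log2 unit of 0, that is, within a 2-fold change either way. Tuba1b and Tuba1c are read only by probe sets that the annotation shares with another gene. The brightest such probe set, of Tuba1b and Gm5620, changed by -0.06 ± 0.19 (adjusted p = 0.915).

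Gamma tubulin was represented by Tubg1, the form that nucleates microtubules in dividing cells. Its signals were 193, 496 and 258 in fetal liver, against 162, 144 and 204 in bone marrow, a change of 0.78 ± 0.46 (adjusted p = 0.349). The groups overlapped by fetal liver replicate 1 and bone marrow replicate 3. Tubg2 was above background on no array.

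Mitotic kinesins, the motors of spindle and cell division, did not separate fetal liver from bone marrow MkP past the threshold. Of 13 tested, 0 were called in either direction in limma, against 3.01% called higher and 4.76% called lower over all genes. At an unadjusted p under 0.05 the count was also 0, against 10.7% and 12.1%. Their changes ran from -0.91 to 0.40 with a median of 0.05 (-0.10 without fetal liver replicate 3 and 0.19 without fetal liver replicate 1), and all 13 were above background on all 6 arrays. For 8 of the 13 the 95% interval stayed within a 2-fold change either way, against 13 of the 40 tested members and 3596 of all 11625 genes. These counts use the brightest probe set of each gene. A dimmer Kif2c probe set changed by 1.31 ± 0.49 without overlap (limma unadjusted p = 0.0227, adjusted p = 0.165), whereas the brightest gave 0.08.

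Kif11, the motor that drives the spindle poles apart, had signals of 5805, 6470.4 and 7178 in fetal liver, against 6573, 6504 and 6895 in bone marrow. The groups overlapped fully, with a change of -0.04 ± 0.16 (adjusted p = 0.915; 95% interval -0.40 to 0.31). Kif20a, which acts in the final cut between daughter cells, had signals of 4488, 5649.9 and 4803 in fetal liver, against 3560.5, 5330.4 and 3293 in bone marrow (0.32 ± 0.22, adjusted p = 0.432). Kif22, which binds chromosome arms, had signals of 5022, 4047 and 4487 in fetal liver, against 3622, 4674 and 2321 in bone marrow (0.40 ± 0.25, adjusted p = 0.386). For both genes bone marrow replicate 2 lay among the fetal liver arrays.

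The member with the most negative change in this group was Kif15, a spindle motor that overlaps with Kif11 in function. Its signals were 361, 278 and 220.1 in fetal liver, against 963, 427 and 359.8 in bone marrow (-0.91 ± 0.43, adjusted p = 0.247). Fetal liver replicate 1 and bone marrow replicate 3 were level, and bone marrow replicate 1 was the high array. Kif18b, which shortens microtubule plus ends, had signals of 1090.0, 1031 and 964 in fetal liver, against 763, 719 and 873 in bone marrow (0.39 ± 0.25, adjusted p = 0.394). It was the only tested mitotic kinesin whose groups did not overlap.

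Other genes of cell division gave the setting. Of 25 proliferation genes, all tested, 1 was higher and 0 were lower in limma, against 3.01% and 4.76% of all genes. At an unadjusted p under 0.05, 9 were higher and 0 lower, against 10.7% and 12.1% of all genes, and the median was 0.31. A positive change was found for 21, against 5876 of all 11625 genes. The fetal liver arrays lay above all marrow arrays for 9, against 13.8% of all genes. Tpx2, which starts spindle assembly, had signals of 4586, 4810.3 and 4759 in fetal liver, against 2865, 2765 and 2413 in bone marrow, a change of 0.82 ± 0.17 (adjusted p = 0.0183). Centring each array on its median moved the median of all genes to 0.26. Then 9 of the 25 were called higher, against 897 of all 11625 genes, and the mitotic kinesins, with a median of 0.30, still gave 0 calls. Whether the kinesins differ from the other proliferation genes was not tested.

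Transport kinesins had changes from -1.78 to 1.30, with 0 of 12 tested genes past the threshold in limma. At an unadjusted p under 0.05, 2 had higher and 3 had lower signals, against 10.7% and 12.1% of all genes, and the median was -0.45 against 0.01 for all genes. Under median centring the median of all genes was 0.26, so these changes are relative to the scaling used.

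Kif1b, a carrier of mitochondria and vesicles, had signals of 160.0, 359 and 317 in fetal liver, against 606, 593 and 2100.0 in bone marrow. All marrow values lay above all fetal liver values, and marrow replicate 3 was far above the other marrow arrays. The change was -1.78 ± 0.52 (adjusted p = 0.0659), and it was -1.18 without marrow replicate 3 and -0.41 as the mean of the gene's probe sets. Kif1c, which moves vesicles and Golgi membranes, had signals of 132, 62.5 and 124 in fetal liver, against 789, 207 and 234 in bone marrow (-1.71 ± 0.58, adjusted p = 0.106). Here too the groups did not overlap, and marrow replicate 1 was the high array. The other Kif1c probe sets were below the filter and disagreed. A dim probe set was higher in fetal liver without overlap, with means of 43.7 in fetal liver and 23.3 in bone marrow. It was above background on 3 fetal liver arrays and 1 marrow array. Another was lower in fetal liver without overlap (means 5.33 and 25.1), above background on 1 marrow array only. The last was above background on no array. Kif17, a motor of cilia and dendrites, had signals of 54.0, 20.8 and 21.9 in fetal liver, where 1 array was above background, against 46.5, 150.1 and 131 in bone marrow (-1.64 ± 0.65, adjusted p = 0.16). The groups overlapped by fetal liver replicate 1 and bone marrow replicate 1. Kif17 passed the filter on dim signals only through its marrow arrays, so a difference was built into its being tested. The granulocyte, macrophage and mast cell markers given above were also higher in these marrow arrays, and their part in the signals of these kinesins was not tested.

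Kif13a and Kif13b, related carriers of endosomal cargo, were the brightest of the group beside Kif5b. Kif13a had signals of 886, 1136 and 770.0 in fetal liver, against 1205, 1401 and 1159 in bone marrow (-0.44 ± 0.25, adjusted p = 0.338). Kif13b had signals of 1327, 917 and 653 in fetal liver, against 1413, 1297 and 1373 in bone marrow (-0.55 ± 0.29, adjusted p = 0.294). The fetal liver arrays were lower than all marrow arrays for Kif13a, by a narrow margin, and overlapped them for Kif13b. Kif5b, the heavy chain of conventional kinesin in most cells, had signals of 5073, 4707 and 5570.2 in fetal liver, against 4474, 2788 and 5201 in bone marrow (0.34 ± 0.24, adjusted p = 0.435). Its 95% interval, -0.18 to 0.87, lay within a 2-fold change.

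The 2 most positive changes in this group were those of Kif21b, which restrains microtubule growth in neurons and T cells, and Kif3c, a kinesin-2 subunit. Kif21b had signals of 867, 344 and 352 in fetal liver, against 239.5, 119.8 and 238 in bone marrow (1.30 ± 0.48, adjusted p = 0.135). The groups did not overlap, and fetal liver replicate 1 was the high array. Kif3c had signals of 378, 358 and 351 in fetal liver, against 115, 358 and 107 in bone marrow (1.13 ± 0.50, adjusted p = 0.211). Only bone marrow replicate 2 reached the fetal liver level, and without it the change was 1.68 (adjusted p = 0.0382). Of the remaining tested transport kinesins, Kif3a, Kif3b and Kif16b had changes of -0.38, -0.45 and -0.94 and Kif21a 0.64, with adjusted p from 0.349 to 0.745.

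Kifc2, a minus-end-directed motor known from neurons, was below the filter but past the threshold without it. Its signals were 119.8, 152 and 49.3 in fetal liver, against 7.15, 2.15 and 12.3 in bone marrow. It was above background on all fetal liver arrays and no marrow array, which makes it at least 3.31-fold higher in fetal liver, and the fit with no filter, on marrow values all below background, gave an adjusted p of 0.0236. A second Kifc2 probe set was above background on no array, with signals of 18.8, 10.6 and 1.53 in fetal liver, against 12.3, 9.02 and 1.47 in bone marrow. Together with Kif26a and Tubb4a this made 3 of the 56 genes above background on every fetal liver array and no marrow array. The same count was not taken over all genes, so there is no share to read it against.

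**Figure D2:**
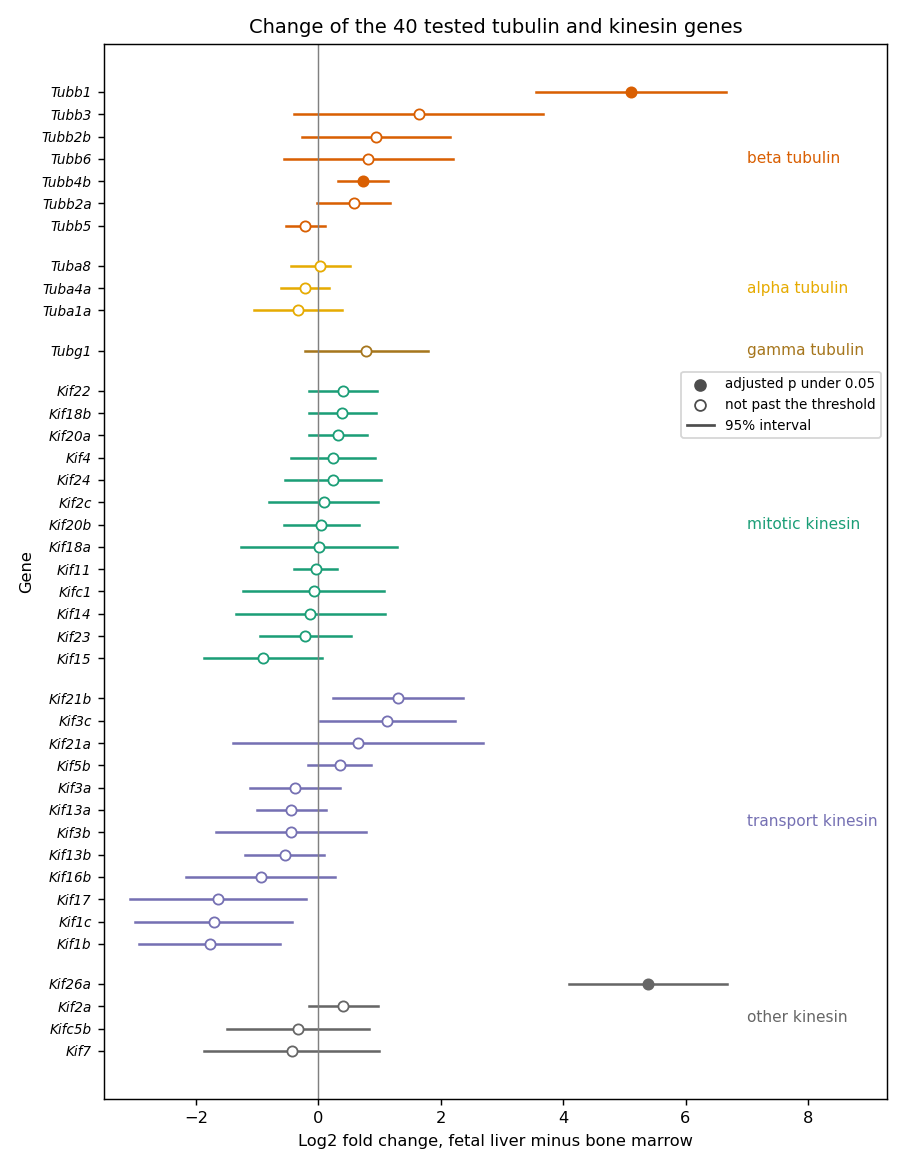
Log2 fold change, fetal liver minus bone marrow, of the 40 tested genes by role; lines are 95% intervals and filled points have an adjusted p under 0.05. Only Tubb1, Tubb4b and Kif26a are filled, the mitotic kinesins lie around 0, and the transport kinesins run from -1.78 to 1.30.

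The kinesins placed in neither class included, beside Kif26a, 3 tested genes, and none of those was past the threshold. Kif2a, which takes microtubules apart at their ends, had signals of 4383, 3443 and 4191 in fetal liver, against 4105, 2052 and 3234 in bone marrow (0.40 ± 0.26, adjusted p = 0.396). Kif7, which acts in hedgehog signalling, had signals of 43.3, 75.1 and 53.3 in fetal liver, against 151, 94.0 and 30.7 in bone marrow (-0.44 ± 0.65, adjusted p = 0.754). Kifc5b, a near copy of the spindle motor gene Kifc1, had signals of 154, 75.2 and 148 in fetal liver, against 213, 187 and 87.8 in bone marrow (-0.34 ± 0.53, adjusted p = 0.768). All 3 overlapped between tissues, and probes may not tell Kifc5b from Kifc1.

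Different probe sets of a gene often disagreed. Of 24 members with over 1 tested probe set, 15 had probe sets of both signs and 9 had a single sign, and 0 of the 53 further probe sets were past the threshold in limma (9 at an unadjusted p under 0.05), against 5.06% and 20.1% of all 27022 probe sets tested. For Tubb5 the second probe set had signals of 6442, 7396 and 7502 in fetal liver, against 4495, 4583 and 5464 in bone marrow, a change of 0.56 ± 0.17 (adjusted p = 0.0915), whereas the brightest gave -0.22. For Kif21a the second gave signals of 146, 96.5 and 59.5 in fetal liver, against 17.7, 4.41 and 22.7 in bone marrow (2.64 ± 0.70, adjusted p = 0.0573). Only 1 of the 3 marrow arrays was above background, so the size is uncertain. This probe set passed the filter on dim signals only through its fetal liver arrays. The brightest probe set of Kif21a had 396 in bone marrow replicate 2 and a change of 0.64. For Kif2a a dim probe set gave 51.0, 63.8 and 63.3 in fetal liver, against 167, 585 and 197 in bone marrow (-2.13 ± 0.56, adjusted p = 0.0568), whereas the brightest gave 0.40. In these 3 genes the probe set named here separated the tissues without overlap, while the signals of the brightest overlapped. The 7 probe sets of Kif1b ran from -1.78 to 0.50 and the brightest was the most negative; for Kif21b the second probe set changed by -0.85 and for Kif3c by -0.28. Both tested probe sets of Tubb2a (0.57 and 0.63) and of Tubb4b (0.73 and 0.86) were positive.

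**Figure D3:**
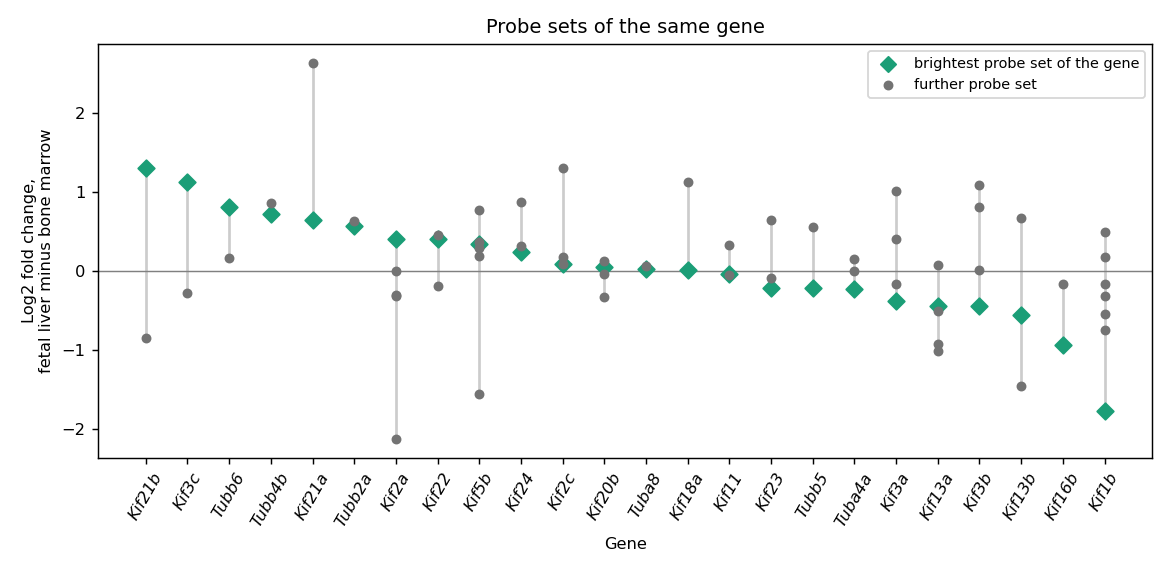
Log2 fold change, fetal liver minus bone marrow, of each tested probe set of the 24 genes that have over 1; diamonds are the brightest probe set, circles the others, and a line joins those of a gene. In 15 genes the points lie on both sides of 0, with the widest spans at Kif2a, Kif5b and Kif1b.

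Of the partners of tubulin and of the motors 3 passed the threshold, all higher in fetal liver, while their lists as a whole ran in both directions. Of 14 tubulin folding genes 1 was higher and 0 were lower: Pfdn4, a subunit of the prefoldin chaperone that hands tubulin on for folding, had signals of 2012, 1221 and 1551 in fetal liver, against 805, 715 and 743 in bone marrow (1.05 ± 0.26, adjusted p = 0.0370). Of 16 tested genes for tubulin modification 1 was higher and 0 were lower. This was Svbp, the partner of the vasohibins that remove the last tyrosine of alpha tubulin, with signals of 1382, 1398 and 1433 in fetal liver, against 422, 219 and 689.9 in bone marrow (1.81 ± 0.39, adjusted p = 0.0192). Of 25 tested microtubule-associated genes 1 was higher and 0 were lower. Camsap2, which caps free minus ends, had signals of 869, 1147 and 571 in fetal liver, against 324, 164 and 338 in bone marrow (1.65 ± 0.40, adjusted p = 0.0342). For all 3 genes every fetal liver array lay above every marrow array. The list medians were 0.25 for folding, -0.27 for modification and -0.02 for microtubule-associated genes. At an unadjusted p under 0.05 the folding list had 2 higher and 0 lower genes, the modification list 3 and 2, and the microtubule-associated list 3 and 5. Over all genes tested, 3.01% were called higher and 4.76% lower, and at the unadjusted p 10.7% were higher and 12.1% lower.

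The other partner lists held no call in limma, against 3.01% called higher and 4.76% called lower over all genes. They were 12 nucleation genes (0 higher and 1 lower at an unadjusted p under 0.05), 19 dynein and dynactin genes (0 and 0) and 8 kinesin light chains and adaptors (0 and 0). At that unadjusted p, 10.7% of all genes were higher and 12.1% lower. The medians of these lists were 0.15, 0.11 and -0.05, against 0.01 for all genes. Among the brightest, the gamma tubulin scaffold Akap9 changed by -0.66 ± 0.29 (adjusted p = 0.2) and Mzt1, a small subunit of the nucleation complex, by -0.12 ± 0.22 (adjusted p = 0.793). The dynein light chain genes Dynll1 and Dynlrb1 changed by 0.30 ± 0.16 and -0.10 ± 0.19 (adjusted p = 0.311 and 0.809). Klc1, a light chain of conventional kinesin, changed by -0.09 ± 0.27 and Trak1, which couples it to mitochondria, by -0.12 ± 0.26 (adjusted p = 0.894 and 0.834).

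**Figure D4:**
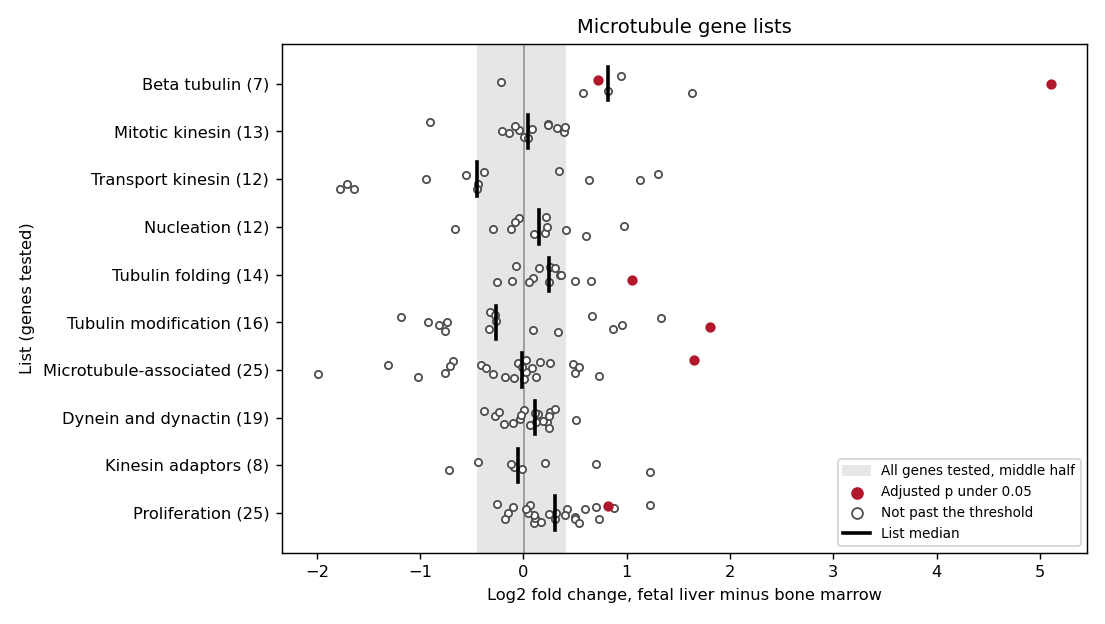
Log2 fold change, fetal liver minus bone marrow, of every tested gene of 10 microtubule and proliferation lists; filled points have an adjusted p under 0.05, black bars are list medians, the grey band spans the middle 50% of all genes tested and the thin line is their median. The list medians lie between -0.45 for transport kinesins and 0.82 for beta tubulins, and filled points lie only right of 0.

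The 16 genes below the filter were 2 beta tubulins, 1 alpha tubulin, 1 gamma tubulin, 1 mitotic kinesin, 6 transport kinesins and 5 other kinesins. Besides Kifc2 and Tubb4a they were Tuba3b, Tubb2a-ps2, Tubg2, Kif2b, Kif1a, Kif5a, Kif5c, Kif28, Kifc3, Kif6, Kif9, Kif12, Kif26b and Kif27. Of the 56 genes, 35 were above background on all 6 arrays and 5 on none: Tuba3b, Tubg2, Kif2b, Kif12 and Kif28, going by probe sets of their own. A probe set that the annotation shares between Tuba3b and Tuba3a was above background on all 6 arrays, with signals of 149.8, 167 and 52.2 in fetal liver, against 210.5, 215 and 177 in bone marrow (-0.85 ± 0.53, adjusted p = 0.425). The neuronal conventional kinesins Kif5a and Kif5c were above background on no fetal liver array; over all their probe sets Kif5a was above it on 1 marrow array and Kif5c on 2, while Kif5b was above it on all 6 arrays.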

How the data were processed

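RNA of 6 sorted MkP samples was hybridised to Affymetrix arrays. The authors deposited linear probe set signals (intensity values), which per the submitters' processing notes come from MAS5; the sources used here do not give its settings or version. The table held 45101 probe sets, 64 of them controls, and no pair of arrays shared an identical signal. The number of arrays limits the precision.

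Signals were converted to log2(signal + 2.87), the offset being the 10th percentile of all signals. Probe sets with a mean above the 40th percentile were kept (27022). Symbols came from the platform annotation (34958 probe sets with 1 symbol, 932 with several, 9211 not listed), and all 56 members were found in the RefSeq gene table. The brightest kept probe set stood for each gene (11625 genes), also when an array was left out. The model was fitted in R 4.3.3 with limma 3.58.1 (lmFit, then eBayes with a trend on mean signal), and p-values were adjusted over the 11625 genes by Benjamini-Hochberg and called at 0.05. A bound ("at least") sets the brighter tissue against the higher of the gene's signal and the highest bacterial control on each array of the other. A fit with a row per probe set served the comparison of probe sets. In 17 alternatives the filter, offset, scaling, choice of probe sets, variance model, replicate block, Gapdh covariate or set of arrays was changed. The script was tested on simulated data. Figures were drawn with matplotlib 3.10.9.

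The members and gene lists were chosen with earlier results of these data known. Genes named are the members past the threshold, the 3 brightest and the 3 with the largest change of each role group, and of each partner or marker list up to 3 called genes or, with none called, the 2 brightest. Tubb4a, Tubb6, Kif3c, Kif21a, Kif21b, Kifc2, Kif3a, Kif3b, Kif16b, Slamf1, Tuba1b and the genes listed below the filter were added after their values were seen. So was Kif2c. Kinesin classes are from general knowledge.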

Additional observations from a re-analysis of the deposited data

How the results depend on the processing

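Tubb1 kept its direction and call in all 17 alternatives (4.17 to 5.92, adjusted p 5.33e-04 to 0.0211) and Kif26a in the 16 that tested it (3.14 to 5.64, adjusted p 3.54e-04 to 0.00474); Kif26a fell below the filter at the 60th percentile. Tubb4b kept its direction in all 17 but lost its call in 10, with adjusted p from 0.0105 to 0.196. The count of members called higher stayed between 2 and 4. The count called lower was 0, but 1 (Kif1b, adjusted p = 0.0272) with a replicate block, 1 (Kif1b, 0.0146) with the Gapdh 5' to 3' signal ratio as a covariate (an alternative added after the data were seen), and 0 to 1 with an array left out (1, Tuba4a, without fetal liver replicate 1). The cause was not tested. Deviations of same-numbered arrays correlated at 0.15, -0.02 and 0.08, and fetal liver replicate 2 correlated best with bone marrow replicate 3 (0.10). With 3 arrays a tissue these values cannot decide whether the replicate numbers pair the samples. The block changed no other member's call. Tubb2a was called with the Gapdh covariate (0.83, adjusted p = 0.0289). Tuba4a turned to 0.028 under median centring. Over all genes, calls of higher and lower genes were 350 and 553, against 897 and 438 with median centring and 522 and 688 with the replicate block. They were 166 and 371 without the variance trend, and 117 to 313 and 316 to 439 with an array left out. With 3 arrays a tissue, 95% intervals reached past a 2-fold change for 27 of the 40 tested members. They stayed within it for the other 13, and for 3596 of all 11625 genes tested.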
